A study of Homo sapiens with 6 samples.

Results

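The Notch pathway genes described here are the receptor genes NOTCH1, NOTCH2 and NOTCH3, the ligand genes JAG1, JAG2 and DLL1, and the target genes HES1, HEY1, HEYL and NRARP. They were found by symbol, and each of the 10 matched 1 row of the 60419 genes in the deposited tables. RNA was sequenced from 12Z, a human cell line made by immortalising cells of an endometriotic lesion, which the labels call wild type and which was grown with 10% charcoal-stripped serum. The Myrrh group (3 libraries) received an extract of myrrh, a tree resin, at 100 µg/mL in DMSO for 12 h, and the DMSO group (3 libraries) received the vehicle alone. A total of 1.5 µg of RNA went into each library, and the comparison asks how the extract changes gene expression.

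All libraries came from the same line, and no source used here says whether each was its own culture. The p-values therefore reflect the spread among these libraries, which may be technical. Depth was 22454783 to 24531493 estimated counts in the Myrrh libraries and 22592816 to 27588151 in the DMSO libraries. TPM is a level per transcript length that is scaled to the same total in every library. Of 7 epithelial markers 5 were at 1 TPM or more in every library, and the 7, mostly the keratin genes KRT8 and KRT18, summed to 1165 to 1270 TPM in Myrrh and 1576 to 1608 TPM in DMSO. EPCAM lay at 1.89 to 3.24 TPM in Myrrh and 0.92 to 1.37 TPM in DMSO. The epithelial adhesion gene CDH1 was at 0.02 to 0.66 TPM in Myrrh and 0.07 to 0.23 TPM in DMSO. Of 7 stromal markers 6 were at 1 TPM or more in every library, and the 7 summed to 1936 to 2045 TPM in Myrrh and 4262 to 4369 TPM in DMSO. Leukocyte markers summed to 53.6 to 76.8 TPM in Myrrh and 30.3 to 34.1 TPM in DMSO, nearly all of it CD68, with CD3E at 0 in every library. CD68 rose (log2 fold change 0.84), while CD14 (-2.28) and PTPRC (-2.88) fell at low levels. CD14 was at 0.34 to 0.53 TPM in Myrrh and 1.94 to 2.88 TPM in DMSO. The TPM of PTPRC overlapped between the groups, at 0 to 0.2 in Myrrh and 0.14 to 0.22 in DMSO. The part of these marker shifts in the results on the Notch genes was not tested.

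Notch receptors are membrane proteins that are cut when a Jagged or Delta-like ligand on a neighbouring cell pulls on them. The freed intracellular part enters the nucleus, joins the DNA-binding protein RBPJ and a Mastermind co-activator, and turns on genes such as those of the HES and HEY repressors and NRARP, a feedback inhibitor of the complex. In the endometrium the pathway is known for its part in the differentiation of epithelium and stroma.

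RefSeq promoter windows (GRCh38.p14, from 250 bases before to 50 after the start) were matched for 8 of the 10 genes. DLL1 and HEY1 had no window and were not searched. The letters GTGGGAA, the core that RBPJ binds, were searched on both strands and stood in 2 of these 8 windows, against 6.25% of all 35116 windows. Those 2 were the windows of HES1 and HEYL, and the stretches around the match are shown because they hold the letters of the pathway's own DNA-binding protein, with the match in capitals. The HES1 stretch is the plus strand at chr3:194136016-194136115, before the start of the gene. The HEYL stretch is the minus strand at chr1:39639803-39639832, where the core lies in reverse.
HES1: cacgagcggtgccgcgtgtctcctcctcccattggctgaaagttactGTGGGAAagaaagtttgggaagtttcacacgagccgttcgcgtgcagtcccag
HEYL: cgcctagggccTTCCCACggctcggcggcg
The match began at position -85 from the start in HES1 and at position -178 in HEYL. GENCODE release 29 places the start of HEYL further upstream than this window. The N box letters CACNAG, which HES repressors bind, stood in 5 of the 8 windows (HES1, NOTCH1, NOTCH2, NOTCH3 and NRARP), against 38.0% of all windows, and 4 times in that of HES1. The heat shock element core GAANNTTC stood in the HES1 window alone among the 8, against 6.77% of all windows, and TGATGNAA, a C/EBP-ATF element, in none of the 8, against 3.62%. None of these letters overlapped the HES1 match to GTGGGAA, and a match describes the letters only.

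Of the 10 genes, 9 passed the filter on low counts, and all 9 differed between Myrrh and DMSO at an adjusted p under 0.05. Among them 7 rose (NOTCH1, NOTCH2, JAG1, DLL1, HES1, HEY1 and NRARP) and 2 fell (NOTCH3 and JAG2). The filter can be passed through 1 group alone. DLL1 was scarce in DMSO (mean 0.378 CPM), and its call and fold are counted among the 9. Every adjusted p below, unless another is named, comes from the quasi-likelihood test of edgeR, adjusted by Benjamini-Hochberg for the 16395 genes tested. Across all tested genes, 78.4% passed the same threshold, 39.3% higher and 39.1% lower, so a pass alone does not set these genes apart. With library totals in place of TMM scaling factors, 41.8% of all called genes were higher, against 50.1% as reported, and the median of all genes moved by -0.14. A log2 fold change of at least 1 in size was also reached by 5 of the 9, with 3 higher and 2 lower, against 29.4% of all tested genes (11.3% higher and 18.0% lower). The median size of the log2 fold change was 1.29 over the 9 genes and 0.61 over all tested genes. CPM here are counts scaled to library size times the TMM factor. In these CPM the groups did not overlap for any of the 9, against 80.3% of all tested genes. Overlap in CPM without TMM factors was not tested.

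**Figure D1:**
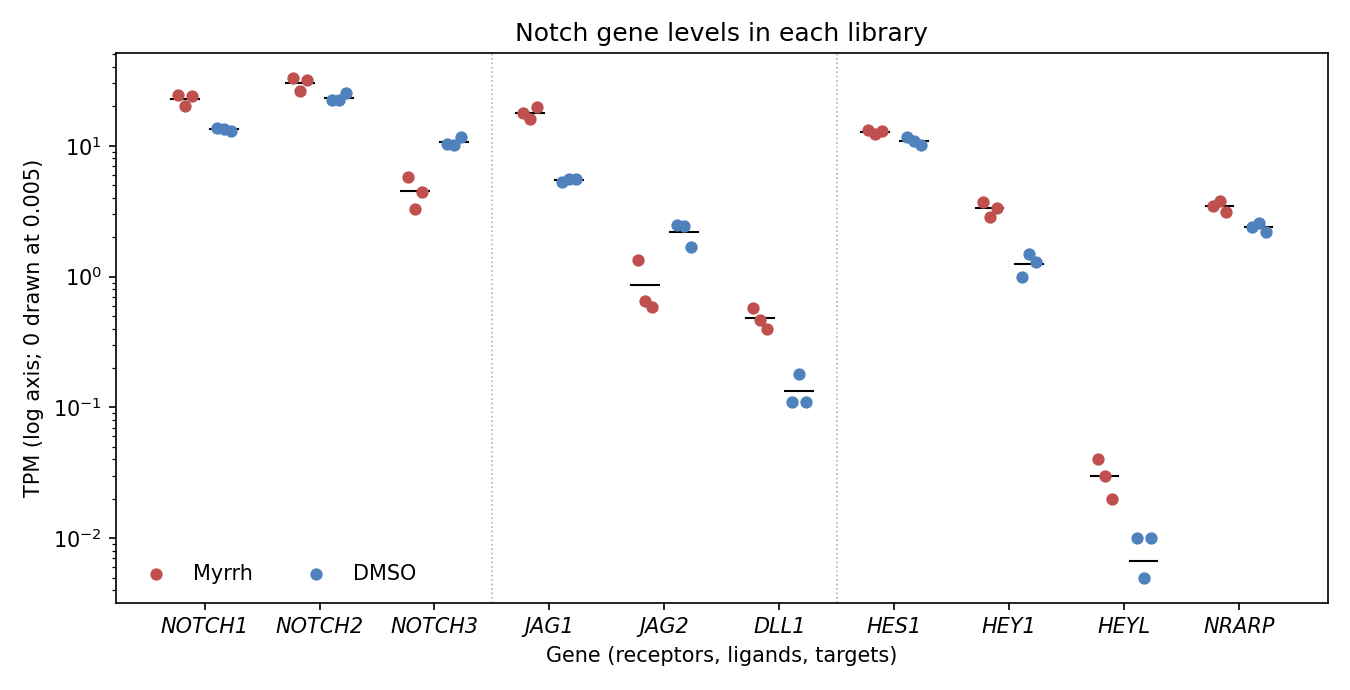
Levels of the 10 Notch genes in TPM (log axis) in each of the 3 Myrrh (red) and 3 DMSO (blue) libraries, with the mean as a line and a TPM of 0 (HEYL, DMSO replicate 2) drawn at the foot of the axis. JAG1 lies at 16.1 to 19.9 TPM in Myrrh and 5.25 to 5.62 TPM in DMSO, while NOTCH3 and JAG2 lie lower in Myrrh.

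The receptor genes moved in different directions. NOTCH1, a receptor with roles in many cell fate decisions, had 162, 149 and 164 CPM in the Myrrh libraries, against 94.8, 94.2 and 91.7 CPM in the DMSO libraries. All 3 Myrrh values lay above all 3 DMSO values, and the log2 fold change of NOTCH1 was 0.76 ± 0.05 (SE, n = 3 each; adjusted p = 3.99e-13 by edgeR). NOTCH2, a receptor with broad expression, had 258, 226 and 254 CPM in Myrrh, against 186, 191 and 206 CPM in DMSO. Its groups stood apart by less, and its log2 fold change was 0.34 ± 0.06 (edgeR adjusted p = 1.07e-05), below the size of 0.5 that glmTreat tested (adjusted p = 1). NOTCH3, a receptor best known from vascular smooth muscle and pericytes, had 25.8, 22.4 and 24.1 CPM in Myrrh, against 67.6, 65.3 and 69.4 CPM in DMSO. The NOTCH3 counts were 2.79-fold lower in Myrrh, with a log2 fold change of -1.48 ± 0.06 (edgeR adjusted p = 2.01e-17). In bulk RNA, fewer cells with a transcript and less of it per cell cannot be told apart. Among the markers of smooth muscle and pericytes, where NOTCH3 is also made, the sum over 6 genes was 43.7 to 46.7 TPM in Myrrh and 50.3 to 51.4 TPM in DMSO, and single genes moved in opposite directions. The pericyte markers RGS5 (3.25 to 5.22 TPM in Myrrh, 0.75 to 1.68 TPM in DMSO) and CSPG4 (15.4 to 19.5 TPM in Myrrh, 10.4 to 10.9 TPM in DMSO) rose, with log2 fold changes of 1.54 and 0.69. The muscle marker ACTA2 (20.8 to 22.9 TPM in Myrrh, 36.7 to 38.0 TPM in DMSO) fell, with a log2 fold change of -0.84. MYH11 and DES also fell and stayed under 1 TPM in every library, while CNN1 was not called (0.42, edgeR adjusted p = 0.192).

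NOTCH2 has human-specific partial copies, the NOTCH2NL genes, and RSEM splits reads that match several of them. NOTCH2NLA rose by 1.11 ± 0.09 on the log2 scale (edgeR adjusted p = 3.67e-11), NOTCH2NLB by 0.93 ± 0.14 (4.38e-06) and NOTCH2NLC by 0.68 ± 0.06 (4.37e-10). NOTCH2 took 77.5% to 80.6% of the counts over these 4 genes in Myrrh and 83.2% to 85.5% in DMSO. Their summed level was 292 to 320 CPM in Myrrh and 224 to 241 CPM in DMSO, without overlap. The sum does not depend on the split among the 4 genes, but it is mostly NOTCH2 and holds the NOTCH2NL genes, which all rose. Whether the split affects the change of NOTCH2 itself was not tested.

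Per length, NOTCH2 was the most abundant of the 3 receptors in both groups, with 30.3 ± 3.59 TPM in Myrrh and 23.3 ± 1.60 TPM in DMSO (SD, n = 3). NOTCH1 followed with 22.9 ± 2.46 TPM in Myrrh and 13.4 ± 0.302 TPM in DMSO, and NOTCH3 had 4.49 ± 1.25 TPM in Myrrh and 10.7 ± 0.798 TPM in DMSO. As a share of the summed receptor TPM, NOTCH3 made up 7.69% ± 1.29 in Myrrh and 22.6% ± 0.675 in DMSO (SD, n = 3), with no overlap. The share of NOTCH1 was 38.7% to 40.5% in Myrrh and 26.2% to 29.4% in DMSO, and that of NOTCH2 was 52.2% to 52.9% in Myrrh and 48.4% to 50.5% in DMSO. The summed level of the 3 receptors overlapped between the groups, at 49.6 to 63.3 TPM in Myrrh and 45.9 to 49.8 TPM in DMSO. NOTCH1 lies on chromosome 9 at 136494433 to 136545786, NOTCH2 on chromosome 1 at 119911553 to 120069626 and NOTCH3 on chromosome 19 at 15159038 to 15200981 (GRCh38, GENCODE release 29), all on the minus strand and protein-coding, with 34, 34 and 33 exons in their longest transcripts.

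**Figure D2:**
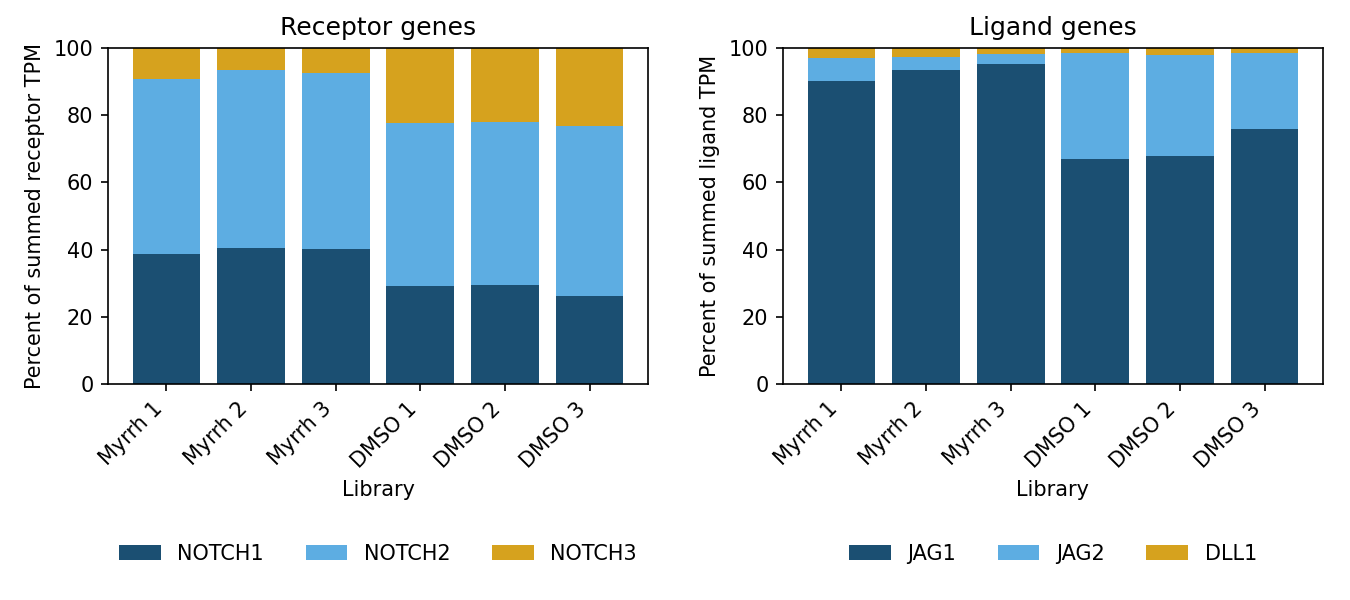
Share of the summed receptor TPM (left) and of the summed ligand TPM (right) taken by each gene in each library, Myrrh libraries left of DMSO libraries. NOTCH3 takes 7.69% of the receptor sum on average in Myrrh and 22.6% in DMSO, and JAG1 takes 90.3% to 95.3% of the ligand sum in Myrrh and 66.9% to 75.8% in DMSO.

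Of the 3 ligand genes, JAG1 and DLL1 rose and JAG2 fell. JAG1 encodes the ligand Jagged-1. JAG1 had 67.5, 67.8 and 73.3 CPM in the Myrrh libraries, against 19.6, 19.3 and 20.1 CPM in the DMSO libraries. The groups were far apart relative to their spread, with JAG1 3.54-fold higher in Myrrh (log2 fold change 1.82 ± 0.06, edgeR adjusted p = 1.96e-19). Only 2.55% of all tested genes had a higher log2 fold change than JAG1. JAG2, the gene of the related ligand Jagged-2, had 2.02, 1.29 and 1.46 CPM in Myrrh, against 5.43, 5.14 and 4.54 CPM in DMSO. Every Myrrh library lay below every DMSO library, and JAG2 was 3.14-fold lower in Myrrh (log2 fold change -1.65 ± 0.18, edgeR adjusted p = 5.56e-09). DLL1, a Delta-like ligand gene, was scarce, with 36, 30.5 and 23 estimated counts in Myrrh, against 7.38, 15 and 8.39 in DMSO. In CPM that was 1.32 ± 0.218 in Myrrh and 0.378 ± 0.124 in DMSO (SD, n = 3), a log2 fold change of 1.81 ± 0.33 for DLL1 (edgeR adjusted p = 1.82e-05). In the authors' log2(TPM + 1) table, whose pseudocount makes the changes of scarce genes smaller, the difference was 0.39 for DLL1 and -0.80 for JAG2, with limma adjusted p of 0.00194 and 0.00116.

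JAG1 was the most abundant of these 3 ligand genes per length, with 17.9 ± 1.88 TPM in Myrrh and 5.48 ± 0.201 TPM in DMSO (SD, n = 3). JAG2 had 0.86 ± 0.417 TPM in Myrrh and 2.21 ± 0.457 TPM in DMSO, and DLL1 had 0.483 ± 0.0907 TPM in Myrrh and 0.133 ± 0.0404 TPM in DMSO. The TPM ratio of JAG1 to JAG2 was 13.3, 24.8 and 33.7 in the Myrrh libraries, against 2.11, 2.27 and 3.35 in the DMSO libraries. The summed level of the 3 ligands was 17.2 to 20.9 TPM in Myrrh and 7.41 to 8.2 TPM in DMSO, and JAG1 made up 90.3% to 95.3% of it in Myrrh and 66.9% to 75.8% in DMSO. JAG1 lies on chromosome 20 at 10637684 to 10673999 with 26 exons, JAG2 on chromosome 14 at 105140981 to 105168824 with 26 exons, and DLL1 on chromosome 6 at 170282206 to 170306565 with 11 exons, all on the minus strand. Whether the counting used strand is not known from the sources used. The opposite-strand gene whose exons overlap those of JAG1 had 0 counts, and FAM120B, which overlaps DLL1 on the opposite strand outside exons, had 1719 counts over the Myrrh libraries and 2336 over the DMSO libraries. JAG2 shares exon sequence with AL512356.1, which had 3.19 counts over the Myrrh libraries and 7.21 over the DMSO libraries.

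All 3 target genes that could be tested rose, by unequal amounts, beside 39.3% of all tested genes higher. HEY1, a basic helix-loop-helix repressor, had 5.37, 4.97 and 5.26 CPM in Myrrh, against 1.60, 2.57 and 2.16 CPM in DMSO. The groups did not overlap, and HEY1 was 2.44-fold higher in Myrrh (log2 fold change 1.29 ± 0.17, edgeR adjusted p = 1.49e-07). NRARP, which binds the Notch intracellular complex and limits its output, had 6.25, 7.48 and 5.78 CPM in Myrrh, against 4.59, 5.03 and 4.15 CPM in DMSO. The log2 fold change of NRARP was 0.50 ± 0.14 (edgeR adjusted p = 0.00157), and against a size of 0.5 glmTreat gave an adjusted p of 0.431.

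HES1, the repressor most used as a readout of Notch activity, had the smallest difference of the 9 tested genes. It had 13.0, 13.6 and 13.7 CPM in Myrrh, against 12.2, 11.7 and 10.5 CPM in DMSO. In these TMM-scaled CPM the Myrrh libraries were all higher, but the log2 fold change of HES1 was 0.23 ± 0.09 (edgeR adjusted p = 0.0200). This call was lost in 6 of 15 other settings, scaling by library totals among them, where HES1 was at 0.088 (adjusted p = 0.372), and without DMSO replicate 3, where it was at 0.17 (0.103). The adjusted p for HES1 ranged from 0.0127 to 1 over the other settings. Among the 4 target genes described, HES1 had the highest level per length, at 12.9 ± 0.430 TPM in Myrrh and 10.9 ± 0.855 TPM in DMSO (SD, n = 3). Other HES genes, given below, are outside this ranking. HEY1 was at 3.33 ± 0.441 TPM in Myrrh and 1.25 ± 0.247 TPM in DMSO, and NRARP at 3.46 ± 0.336 TPM in Myrrh and 2.38 ± 0.185 TPM in DMSO. Of the summed TPM of the 4 target genes, HES1 made up 64.3% to 66.8% in Myrrh and 72.9% to 77.6% in DMSO. That sum was 19.0 to 20.4 TPM in Myrrh and 13.6 to 15.2 TPM in DMSO. The TPM ratio of HEY1 to HES1 was 0.286, 0.232 and 0.257 in the Myrrh libraries, against 0.0841, 0.136 and 0.128 in the DMSO libraries.

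HEYL, a further member of the HEY family, fell below the low-count filter and was not tested. It had 3, 2 and 1 estimated counts in the Myrrh libraries, against 1, 0 and 1 in the DMSO libraries. All of these are at or under a floor of 3 counts per library, so no fold is given, and the 0 in DMSO replicate 2 allows a level of up to 0.104 CPM, for counting error only. HES1 lies on chromosome 3 at 194136145 to 194138732 on the plus strand with 4 exons. On the minus strand lie HEY1 on chromosome 8 at 79764010 to 79767863 with 5 exons, HEYL on chromosome 1 at 39624153 to 39639945 with 5 exons, and NRARP on chromosome 9 at 137300482 to 137302251 with 1 exon.

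**Figure D3:**
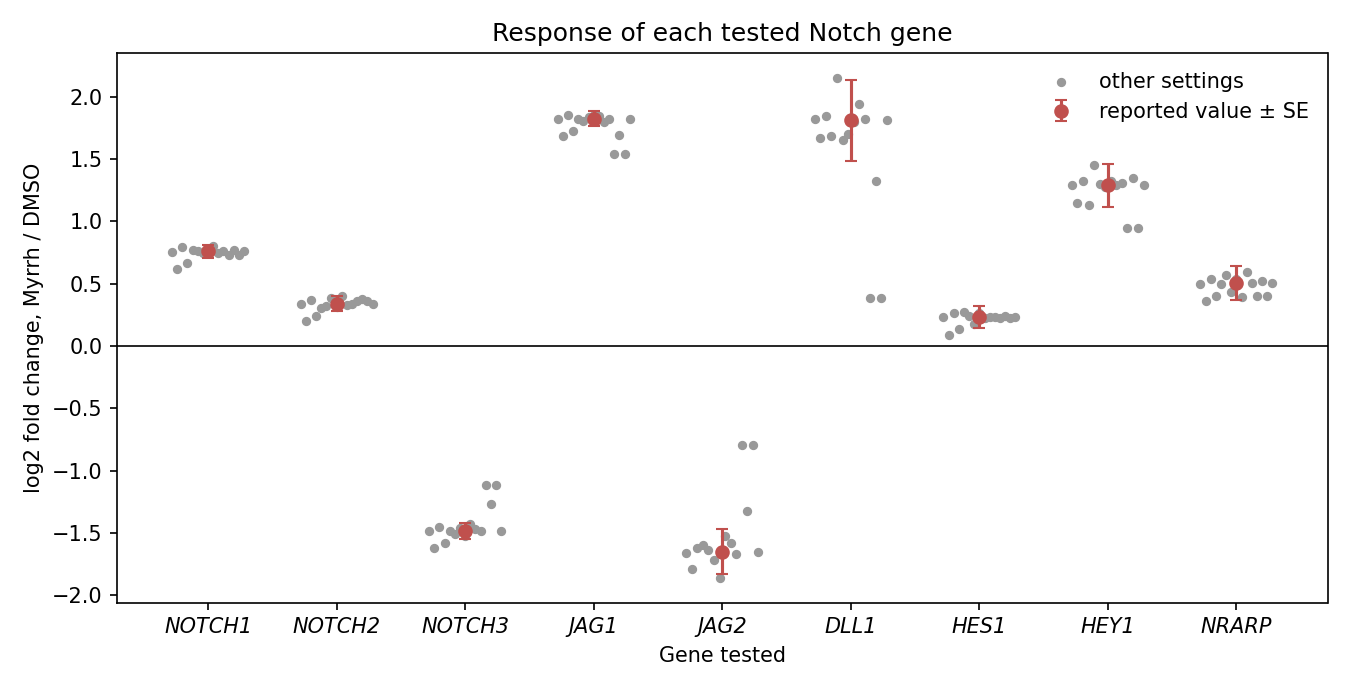
Log2 fold change of Myrrh over DMSO for the 9 tested Notch genes, as reported with its standard error (red) and under each other setting that could test the gene (grey). Every such setting kept the direction of all 9 genes, under glmTreat by construction. HES1 lies nearest to 0, at 0.088 to 0.27 over the other settings.

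By mean TPM, the order in Myrrh was NOTCH2, NOTCH1, JAG1, HES1, NOTCH3, NRARP, HEY1, JAG2, DLL1 and HEYL. The order in DMSO was NOTCH2, NOTCH1, HES1, NOTCH3, JAG1, NRARP, JAG2, HEY1, DLL1 and HEYL. JAG1 thus ranked above HES1 and NOTCH3 in Myrrh and below both in DMSO, with no overlap of its TPM values with theirs in either group. Neighbours in the order overlapped in TPM for NOTCH3 with NRARP and NRARP with HEY1 in Myrrh, and for HES1 with NOTCH3 and NRARP with JAG2 in DMSO.

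The genes most like JAG1 and JAG2, the highest and the lowest of the 9 in reported log2 fold change (DLL1 was within its error of JAG1), were sought among 11367 other genes with a symbol and a mean of at least 5 CPM. Likeness was the Euclidean distance between log2 CPM profiles over the 6 libraries, each centred on its mean. Among the 3 nearest to JAG1 were MICALL1, an adaptor of endocytic recycling, at a distance of 0.0649, and GOSR2, a SNARE of Golgi transport, at 0.0724. Their log2 fold changes were 1.85 for MICALL1 and 1.83 for GOSR2. The nearest to JAG2 was the histone pseudogene H2BC20P, at 0.227, with a log2 fold change of -1.66. With 2 groups of 3 libraries, such a profile is mostly the difference between Myrrh and DMSO.

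The other genes of the pathway were taken from 6 lists with 58 genes, of which 53 passed the filter on low counts. Of these, 27 rose, 18 fell and 8 were not called, beside 39.3% higher and 39.1% lower over all tested genes. A log2 fold change of at least 1 in size was reached by 15 (8 higher and 7 lower), beside 29.4% of all tested genes. The median size of the log2 fold change was 0.57, against 0.61 over all tested genes, and the signed median was 0.18, against -0.017. The 15 include genes that were scarce in 1 group and can have passed the filter through the other group alone. Mean levels were 0.199 CPM for DLL4 and 0.310 CPM for NEURL1 in DMSO. In Myrrh they were 0.148 CPM for MFNG, 0.197 CPM for MAML3 and 0.299 CPM for NOTCH4.

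Among the other receptor and ligand genes, 2 of 5 tested rose and 2 fell, beside 39.3% and 39.1% of all tested genes. DLL4, a Delta-like ligand best known from vessel sprouting, was at 1.07, 0.89 and 0.74 TPM in the Myrrh libraries, against 0.09, 0.15 and 0.04 TPM in the DMSO libraries. The groups of DLL4 were wide apart at a low level, with 146 counts over the Myrrh libraries and 16 over the DMSO libraries, and the log2 fold change was 3.40 ± 0.34 (edgeR adjusted p = 1.05e-09). The 7 endothelial markers summed to 0.1 to 0.16 TPM in Myrrh and 0.38 to 0.48 TPM in DMSO, with CDH5 at 0 in every library. Single endothelial markers stayed at or under 0.31 TPM in every library. PECAM1 and CLDN5 were lower in Myrrh, as was the sum. KDR, at 0.01 to 0.1 TPM in Myrrh and 0 TPM in DMSO, and TEK, at 0 to 0.05 TPM in Myrrh and 0 TPM in DMSO, went the other way. The part of these markers in the DLL4 result was not tested. DNER, a neuronal transmembrane protein that can bind Notch, rose by 1.52 ± 0.10 (edgeR adjusted p = 8.41e-14), to 8.60 TPM in Myrrh against 2.70 TPM in DMSO. NOTCH4, a receptor of endothelium, fell by 1.84 ± 0.39 on the log2 scale (edgeR adjusted p = 1.19e-04), with 20 counts over the Myrrh libraries and 87 over the DMSO libraries. DLK2, an atypical ligand, fell by 0.70 ± 0.22 (edgeR adjusted p = 0.00618), a call that was lost without DMSO replicate 2 (adjusted p = 0.0613). The ligand gene DLL3 was not called (0.15 ± 0.20), and DLK1 had 0 counts in every library.

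Receptors are cut by furin in the Golgi, by ADAM proteases at the surface and by gamma-secretase within the membrane. Of 9 such genes 5 rose and 2 fell, beside 39.3% higher and 39.1% lower over all tested genes. ADAM17, a sheddase, rose by 1.18 ± 0.09 (edgeR adjusted p = 2.36e-08), with 31.9 TPM in Myrrh and 15.4 TPM in DMSO. PSEN2, a catalytic subunit of gamma-secretase, rose by 0.89 ± 0.09 (7.20e-10). ADAM10, the main protease of ligand-activated Notch, fell by 0.41 ± 0.05 on the log2 scale in counts (edgeR adjusted p = 5.50e-08), and APH1B, another gamma-secretase subunit, by 0.54 ± 0.07 (2.60e-07). On the authors' log2(TPM + 1) values neither fall was called, with ADAM10 at -0.067 (limma adjusted p = 0.565) and APH1B at -0.13 (0.325).

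Glycosylation enzymes add the O-fucose and O-glucose that the receptor needs, and the fringe enzymes extend the fucose, which sets the preference for Delta-like or Jagged ligands. Of the 5 genes, 4 fell and 1 rose in counts, beside 39.1% lower and 39.3% higher over all tested genes. MFNG, manic fringe, was at 0.21, 0.15 and 0.26 TPM in Myrrh, against 1.58, 1.52 and 1.05 TPM in DMSO. LFNG, lunatic fringe, was at 1.54, 1.77 and 2.13 TPM in Myrrh, against 4.37, 4.08 and 3.88 TPM in DMSO. MFNG and LFNG lay lower in every Myrrh library, with log2 fold changes of -2.88 ± 0.42 for MFNG (edgeR adjusted p = 8.60e-07) and -1.13 ± 0.15 for LFNG (1.81e-07). RFNG, radical fringe, named after its values were seen, was far more abundant per length, at 43.6, 39.7 and 46.0 TPM in Myrrh, against 49.3, 46.1 and 43.4 TPM in DMSO. These TPM values overlapped, and the log2 fold change of RFNG in counts was -0.16 ± 0.06 (edgeR adjusted p = 0.0204). POFUT1, also named after its values were seen, was lower in counts (-0.19 ± 0.07, 0.0199) but had a higher mean TPM in Myrrh, 20.7 TPM against 19.0 TPM in DMSO. POGLUT1, which adds O-glucose to the receptor, rose by 0.21 ± 0.07 (edgeR adjusted p = 0.0105), a call that was lost with library totals (0.073, adjusted p = 0.393). The number that fell was 2 without DMSO replicate 2 and 2 without Myrrh replicate 1.

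**Figure D4:**
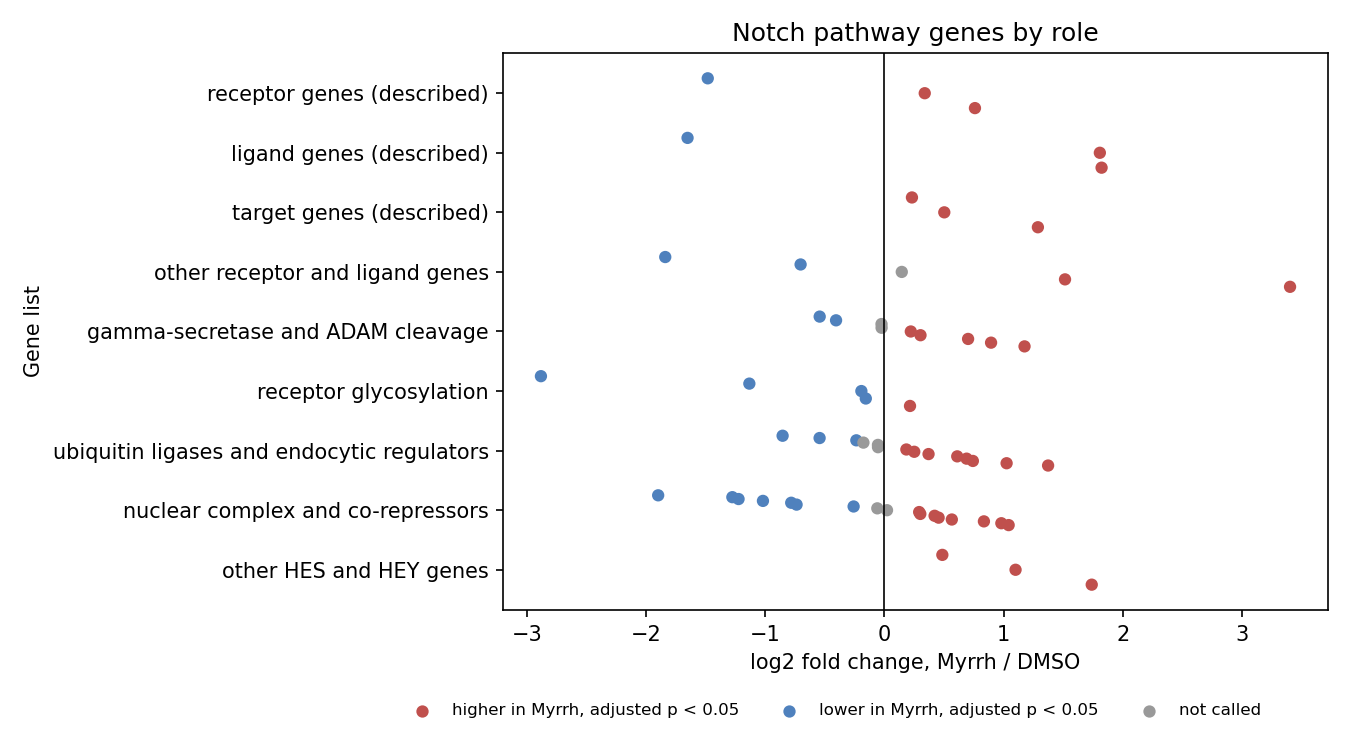
Log2 fold change of Myrrh over DMSO for each tested gene of the Notch pathway, by role, with genes higher in Myrrh in red, lower in blue and not called in grey. DLL4 (3.40) and MFNG (-2.88) are the most distant from 0, and each was scarce in 1 group.

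Ubiquitin ligases and endocytic regulators, which act on the ligand or the receptor, rose in 8 of 14 cases and fell in 3. Over all tested genes the shares were 39.3% higher and 39.1% lower. NEURL1, a ligase for ligand endocytosis, rose by 1.37 ± 0.36 (edgeR adjusted p = 0.00114), at a low level, with 55 counts over the Myrrh libraries and 25 over the DMSO libraries. NEDD4, a ubiquitin ligase of membrane proteins, rose by 1.03 ± 0.06 (9.76e-15), with 22.3 TPM in Myrrh and 10.9 TPM in DMSO. DTX3, of the Deltex family, fell by 0.85 ± 0.05 on the log2 scale (3.23e-14) and MIB2, a mind bomb ligase for Notch ligands, by 0.54 ± 0.07 (5.74e-08). The other mind bomb gene, MIB1, named after its values were seen, rose by 0.37 ± 0.07 (edgeR adjusted p = 2.38e-05).

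For the nuclear complex and its co-repressors, 8 of 17 genes rose and 7 fell, beside 39.3% and 39.1% of all tested genes. The TLE co-repressors, which bind HES proteins, split in direction. TLE3 (1.04 ± 0.07, edgeR adjusted p = 7.84e-14) and TLE1 (0.98 ± 0.05, 2.39e-15) rose. TLE4 (-1.22 ± 0.06, 3.36e-16) and TLE2 (-0.74 ± 0.18, 4.69e-04), both named after their values were seen, fell. KAT2A, a histone acetyltransferase, fell by 1.28 ± 0.06 on the log2 scale (1.07e-16), with 39.1 TPM in Myrrh and 85.0 TPM in DMSO. MAML3, a Mastermind co-activator, fell by 1.90 ± 0.43 in counts (edgeR adjusted p = 2.42e-04), with 13 counts over the Myrrh libraries and 59 over the DMSO libraries, and was not called on log2(TPM + 1) (limma adjusted p = 0.192). The more abundant Mastermind genes, also named after their values were seen, went in opposite directions. MAML1 rose by 0.29 ± 0.06 (edgeR adjusted p = 6.77e-05) and MAML2 fell by 0.78 ± 0.06 on the log2 scale (8.69e-12). RBPJ, named for its place in the pathway after its values were seen, rose by 0.57 ± 0.05 (edgeR adjusted p = 1.68e-10).

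Of the other HES and HEY genes, all 3 that were tested rose and none fell, beside 39.3% of all tested genes higher. HES6, which can counter HES1, was at 15.4, 13.9 and 14.2 TPM in Myrrh, against 4.07, 4.50 and 3.87 TPM in DMSO. Its groups did not overlap, and the log2 fold change of HES6 was 1.74 ± 0.11 (edgeR adjusted p = 4.98e-14). HES7, a gene of the segmentation clock, rose by 1.10 ± 0.15 (3.63e-07). HES4, named after its values were seen, rose by 0.49 ± 0.08 (2.83e-06), with 34.0 TPM in Myrrh and 23.6 TPM in DMSO. The 3 genes that were not tested had few counts over a group: HEY2 had 12 in Myrrh and 0 in DMSO, HES2 had 2 in Myrrh and 8 in DMSO, and HES5 had 0 in both.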

How the data were processed

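One deposited table holds the RSEM estimated counts of each gene without scaling, and the other holds the authors' log2(TPM + 1) values. Per the submitters' processing notes the tools were STAR and RSEM 1.3.1 and the build was GRCh38. Estimated counts were rounded, filtered with edgeR's filterByExpr and scaled with TMM factors (0.933 to 0.973 in Myrrh, 1.05 in DMSO). The test was edgeR 4.0.16's quasi-likelihood F-test (robust, two-sided, R 4.3.3) over all 6 libraries without a block, with a threshold of 0.05, and it was tested on simulated data, where it found nearly all of the largest changes, but false calls made up more than the nominal share of calls, for edgeR and for limma. The simulation changed only a small part of the genes, while 78.4% of all tested genes were called here. Its share of false calls therefore cannot be carried over to these data. How large that share is here, for calls near the threshold such as that of HES1, is not known. Alternatives used DESeq2 1.42.0, limma 3.58.1 and glmTreat against 0.5. A standard error is the size of the log2 fold change over the root of its F value.

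The Notch genes, pathway lists and markers were chosen with earlier results of these data known. Named genes were the 10 described, in each list up to 2 called genes at either end, and the 3 nearest profiles to JAG1 and JAG2, of which some are not reported here. No pair of libraries in a group agreed within sampling noise (chi-square 3.65 to 8.71 per degree of freedom). Across genes, log2 CPM had correlations of 0.990 to 0.993 within groups and of 0.920 to 0.926 for pairs of libraries from different groups.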

Additional observations from a re-analysis of the deposited data

How the results depend on the processing

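All 9 tested Notch genes kept their direction in each of the 15 other settings that could test them, and NOTCH1, NOTCH3, JAG1, JAG2, DLL1 and HEY1 kept their call as well. Among these settings, glmTreat takes the log2 fold change of the reported fit, so the direction could not differ there. HES1 was no longer called with DESeq2 (0.23), library totals (0.088), at least 5 CPM in 3 libraries (0.13), limma on log2(TPM + 1) of every gene above 0 (0.22) and glmTreat (0.23), and was 0.17 to 0.27 with a library left out, where it was lost without DMSO replicate 3. Under glmTreat, NOTCH2 (0.34) and NRARP (0.50) were not called either. Library totals moved the median of all genes by -0.14. The median without a filter was over other genes (29774), and values of single genes moved little there (JAG1 1.85 and HES1 0.26), while they were lower with at least 5 CPM in 3 libraries (JAG1 1.72 and HES1 0.13). By construction, at least 5 CPM in 3 libraries tested fewer genes: 4 Notch genes were higher and 1 lower, with 1 and 1 at a log2 fold change of at least 1 in size. On log2(TPM + 1) that size was reached by 1 higher and 1 lower, also with every gene above 0. With glmTreat 4 Notch genes were higher, as were 3472 of all genes, and 4011 were lower.

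For HES1 and for the lists, the cause of a change was not tested. With library totals, 4 cleavage genes were lower, 5 ubiquitin and endocytic genes were lower and 0 glycosylation genes were higher. With 5 CPM in 3 libraries, 1 other receptor or ligand gene was higher and 0 lower, 0 glycosylation genes were higher and 5 ubiquitin and endocytic genes were lower. With limma on log2(TPM + 1), on log2(TPM + 0.1) and with every gene above 0, 0 cleavage genes and 2 glycosylation genes were lower, and with every gene above 0, 0 glycosylation genes were higher. With glmTreat, 1 other receptor or ligand gene was lower, 3 cleavage genes were higher and 0 lower, 0 glycosylation genes were higher and 2 lower, 5 ubiquitin and endocytic genes were higher and 1 lower, and 3 nuclear genes were higher. With a library left out, 1 to 2 other receptor or ligand genes and 2 to 4 glycosylation genes were lower. Of 444 values of the 30 other named genes under these settings, 426 kept direction and call, 18 lost the call and 0 reversed. Under glmTreat no value could reverse.

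Same-numbered libraries did not deviate together (correlations -0.060, -0.0045 and 0.036), and 1 of 6 libraries correlated best with its own number. No pairing by number was thus seen, but so few libraries cannot exclude it. A replicate block called 6390 genes higher and 6392 lower, and 7 Notch genes higher and 2 lower, the same as without it. Depth limits HEYL, at 6 counts over the Myrrh libraries and 2 over the DMSO libraries, and the size of the changes in DLL1, NOTCH4, MFNG and MAML3.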

Other observations

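The ratio of estimated counts to TPM follows the transcript length that RSEM assigned to a gene in each library, and was examined after the values were seen. It was scaled by 735 genes with 1 transcript in GENCODE release 29 and computed for 10777 genes at 3 TPM or more in every library. For NOTCH3 it was 75.9%, 105% and 89.5% of the DMSO mean in the Myrrh libraries, against 103%, 100.3% and 96.5% in the DMSO libraries. For JAG1 it was 113%, 114% and 106% in the Myrrh libraries, against 104%, 94.4% and 101% in the DMSO libraries. For NOTCH1, NOTCH2 and HES1 it lay between 97.6% and 103% in all 6 libraries. Over all 10777 genes, the ratio of the Myrrh mean to the DMSO mean was 87.2% to 110% between the 10th and 90th percentiles. The TPM of NOTCH3 in Myrrh was more spread (3.28 to 5.77) than its CPM (22.4 to 25.8).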
